A study of Mus musculus with 2 samples.

Results

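The genes of interferon reception were examined in mouse Th1 cells, namely the receptor chains for IFNγ (Ifngr1 and Ifngr2) and for type I interferon (Ifnar1 and Ifnar2), the kinase Jak1, the PIAS inhibitors Pias1, Pias2, Pias3 and Pias4, and the phosphatase Ptpn2. These 10 genes were taken by symbol and not by a cut on their values, though with earlier results of these data known. All 10 were found among the 24421 genes listed. RNA sequencing covered 1 library of WT Th1 cells (genotype Chi3l1+/+) and 1 library of Chi3l1 KO Th1 cells (genotype Chi3l1-/-), both on the C57BL/6J strain. The comparison asks how loss of Chi3l1, a secreted chitinase-like protein, alters the Th1 transcriptome. In both groups naïve CD4 T cells were activated through CD3 and CD28 and skewed with IL-12, IL-2 and an antibody against IL-4. The study used mice of 6 to 8 weeks of age and of both sexes, and the KO was of the whole mouse and not of T cells alone. Cultures ran for 3 or 5 days, and the sources used here give neither the day of the sequenced cells nor the number of mice behind each library.

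IFNγ is held by a receptor of paired chains, IFNGR1, which binds the ligand and carries JAK1, and IFNGR2, which carries JAK2. Type I interferons bind IFNAR2, which carries JAK1, and IFNAR1, which carries TYK2. The kinases phosphorylate STAT proteins, which then enter the nucleus and switch on interferon target genes. PIAS proteins are SUMO ligases that restrain STATs in the nucleus, and PTPN2 removes phosphate from JAK1. Th1 cells make IFNγ themselves and are known to keep IFNGR2 low, which limits their response to it.

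In the library labelled Chi3l1 KO, transcripts of both IFNγ receptor chains were lower than in the library labelled WT, Ifngr2 by 1.80-fold and Ifngr1 by 1.31-fold. Ptpn2 was 1.56-fold higher. The chains of the type I interferon receptor differed little and in opposite directions, and Jak1 was nearly equal. Pias3 and Pias4 were lower, Pias2 was slightly higher and Pias1 was close to equal. None of the 10 genes differed by 2-fold, and with 1 library per genotype (n = 1) none of these differences has a replicate check.

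The targeted gene went against the labels. Chi3l1, listed as Chil1, had 1 rebuilt read in the library labelled WT and 103 in the library labelled Chi3l1 KO. The values are per gene, so it cannot be seen whether the reads lie outside the disrupted part. Libraries are therefore named by their labels, and every direction given here rests on those labels. Counts rebuilt from the deposited values came to 70638495 and 62991545 reads in the libraries labelled WT and Chi3l1 KO. T cell markers (Cd3e, Cd3d, Cd3g, Cd4, Cd28 and Lck) were abundant in both, with summed normalized counts of 170629 and 161657. So were the Th1 markers Tbx21, Il12rb2 and Ifng, while Cxcr3 was low, with 273 and 116 reads. The CD8 T cell markers summed to 812 and 807, with Cd8a higher (288 and 438 reads) and Cd8b1 lower (550 and 397 reads) in the library labelled Chi3l1 KO. The B cell markers Cd79a (267 and 476 reads), Cd79b (268 and 324 reads) and Ms4a1 (61 and 120 reads) were all higher in the library labelled Chi3l1 KO. Of the 5 neutrophil markers listed, 5 were lower, with sums of 59 and 5, and 4 were at 0 in the library labelled Chi3l1 KO. The macrophage markers summed to 675 and 550, with Adgre1 at 0 in both libraries. Of the others, Csf1r was higher (97 and 174 reads) and 3 were lower. The sums were 74 and 122 for 4 dendritic cell markers, of which 3 were higher and 1 lower (Itgax, 44 and 5 reads). For 3 NK cell markers the sums were 36 and 20, with 1 higher and 2 lower. The part of such cells in the values of the interferon receptor genes was not tested. In bulk RNA, fewer cells that express a gene and less RNA per cell cannot be told apart.

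The deposited value of a gene is log2 of a normalized count plus 1. The log2 fold change is the value in the library labelled Chi3l1 KO minus that in the library labelled WT. Each fold is given with an exact binomial (Clopper-Pearson) 95% interval from rebuilt reads, which covers the sampling of reads only and neither cultures nor mice. Read pairs and amplified copies are not independent, so these intervals are narrow. A gene is called well expressed here when its value was at least 8 in both libraries. All 10 genes met this, together with 8886 genes in all, whose log2 fold changes had a median of -0.01 and lay between -0.76 and 0.67 for the middle 95%.

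The promoters of the IFNγ receptor genes are shown because these chains were lower together. The sequences are the 250 bases before the start of the gene in RefSeq (GRCm38.p6), and the strand of both genes is plus. Capitals mark the GC box (GGGCGG, searched on both strands), the motif bound by SP1 family factors. The window of Ifngr1 is chr10:19591699-19591948 and that of Ifngr2 is chr16:91546809-91547058.
Ifngr1: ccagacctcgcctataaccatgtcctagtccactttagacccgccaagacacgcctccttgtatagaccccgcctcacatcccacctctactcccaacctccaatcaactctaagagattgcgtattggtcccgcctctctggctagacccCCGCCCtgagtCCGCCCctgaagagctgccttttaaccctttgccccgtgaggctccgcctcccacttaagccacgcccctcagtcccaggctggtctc
Ifngr2: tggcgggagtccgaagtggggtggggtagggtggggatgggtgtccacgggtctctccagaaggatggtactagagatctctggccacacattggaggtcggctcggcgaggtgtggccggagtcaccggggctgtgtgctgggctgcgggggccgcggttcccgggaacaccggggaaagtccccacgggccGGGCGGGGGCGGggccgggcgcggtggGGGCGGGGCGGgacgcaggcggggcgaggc
Both promoters were rich in G and C and held GC boxes. That of Ifngr2 had 74.0% G and C, 25 CpG dinucleotides and 4 GC boxes, of which a pair overlaps by 1 base, all within 57 bases of the gene start. That of Ifngr1 had 59.2% G and C, 11 CpG dinucleotides and 2 GC boxes, which begin 99 and 88 bases before the start. A GC box was found in 32.7% of 32851 promoter windows of this length, and the median window had 52.4% G and C and 6 CpG dinucleotides. Neither window held the STAT motif TTCNNNGAA, which 7.02% of all windows hold, or GAAANNGAA, a core of the interferon response element, which 7.13% hold. Of the 7 genes searched (8 windows, Pias3 having 2 starts), only Ifnar2 held TTCNNNGAA, beginning 214 bases before its start. The promoters of Pias2, Pias4 and Ptpn2 were not searched. GC boxes were not particular to the IFNγ receptor genes. They also lay in the windows of Pias1 (5), Ifnar1 (2), Jak1 (1) and Pias3 (2 in each), and not in that of Ifnar2. The windows of these other genes had from 54.0% to 71.6% G and C. A match of letters is a description and not a binding site.

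Ifngr2, the chain that couples the IFNγ receptor to JAK2, lies on chromosome 16 from 91547072 to 91565623 (GRCm38, GENCODE M21). Its log2 value was 10.19 in the library labelled WT and 9.35 in the library labelled Chi3l1 KO, from 1206 and 672 reads. This was the widest gap among the 10 genes. This is a log2 fold change of -0.85, or 1.80-fold lower with an interval from 1.64 to 1.98. Of the 8886 well expressed genes, 223 (2.51%) differed as much in either direction.

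Ifngr1, the ligand-binding chain, lies on chromosome 10 from 19591949 to 19610229. It had a log2 value of 12.14 in the library labelled WT and 11.75 in the library labelled Chi3l1 KO, from 4650 and 3561 reads. This chain was also lower, by less than Ifngr2. The log2 fold change was -0.39, or 1.31-fold lower with an interval from 1.25 to 1.37. A difference of this size was common, since 27.2% of well expressed genes reached it. Summed over both chains, normalized counts were 5675 in the library labelled WT and 4093 in the library labelled Chi3l1 KO.

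The type I interferon receptor did not show this joint shift. Ifnar1 (chromosome 16, 91485238 to 91507441) had log2 values of 11.69 in the library labelled WT and 11.88 in the library labelled Chi3l1 KO, which is 1.14-fold higher (interval 1.09 to 1.20). Ifnar2 (chromosome 16, 91372783 to 91405589) had log2 values of 12.22 and 12.01 in the same order. It was 1.15-fold lower (interval 1.11 to 1.20). The 2 chains thus differed in opposite directions, and 58.1% and 55.4% of well expressed genes differed as much as Ifnar1 and Ifnar2. Their summed normalized counts were 8056 and 7897. Of the 100-base windows of the longest Ifnar2 transcript, 7.33% also occur in Gm21970, an overlapping gene model on the same strand, so that part of its reads is uncertain.

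Jak1 (chromosome 4, 101152367 to 101265282), the kinase shared by both receptors and by many cytokine receptors, had log2 values of 13.48 in the library labelled WT and 13.49 in the library labelled Chi3l1 KO. The log2 fold change was 0.01 (interval -0.02 to 0.05), and 97.3% of well expressed genes differed as much or more. The sign is not stable, with -0.07 after the trend with GC content was removed and 0.13 when the libraries were scaled to Actb. Ptpn2 (chromosome 18, 67665511 to 67724595), the phosphatase that acts on JAK1, went from 12.13 in the library labelled WT to 12.78 in the library labelled Chi3l1 KO, from 4625 and 7247 reads. This was the largest excess in the library labelled Chi3l1 KO among the 10 genes. This is a log2 fold change of 0.65, or 1.56-fold with an interval from 1.51 to 1.62, and 7.37% of well expressed genes differed as much. With the trend with GC content removed, it was 0.42.

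**Figure D1:**
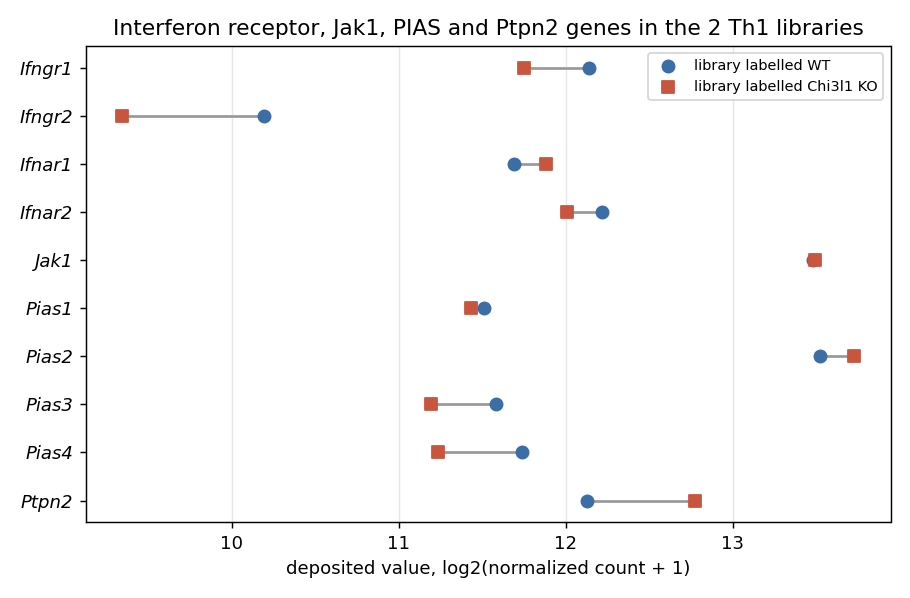
Deposited log2(normalized count + 1) on the horizontal axis for the 10 genes, with a circle for the library labelled WT and a square for the library labelled Chi3l1 KO (1 library each, no error bars). Ifngr2 (10.19 and 9.35) and Ptpn2 (12.13 and 12.78) have the longest lines between the libraries, in opposite directions, and the symbols of Jak1 nearly coincide.

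The PIAS genes encode SUMO ligases that differ in the STATs they are best known to restrain. Pias1 (chromosome 9, 62878368 to 62987924) had log2 values of 11.51 in the library labelled WT and 11.44 in the library labelled Chi3l1 KO. The log2 fold change was -0.08 with a lower bound of -0.15 and an upper bound just under 0, and it turned to 0.04 under scaling to Actb and moved to -0.27 with the GC trend removed. Pias2 (chromosome 18, 77065208 to 77153800), which is known to act on STAT4, had 13.53 and 13.73 in the same order. It was 1.15-fold higher in the library labelled Chi3l1 KO (interval 1.12 to 1.18), and its log2 fold change went from 0.20 to 0.01 with the GC trend removed. For these genes, 83.2% and 56.4% of well expressed genes differed as much.

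Pias3 and Pias4 were lower in the library labelled Chi3l1 KO. Pias3 (chromosome 3, 96696384 to 96706070), known as an inhibitor of STAT3, had log2 values of 11.58 in the library labelled WT and 11.20 in the library labelled Chi3l1 KO, from 3165 and 2423 reads. It was 1.31-fold lower (interval 1.24 to 1.38). Pias4 (chromosome 10, 81153266 to 81167923), which encodes PIASy, had 11.74 and 11.23, from 3526 and 2490 reads. It was 1.42-fold lower (log2 interval -0.58 to -0.43), the largest gap within the family as deposited but the second smallest with the GC trend removed, and 15.6% of well expressed genes differed as much. Across the 4 genes, 3 were lower and 1 was higher, with a median log2 fold change of -0.23. The summed normalized counts of 21186 and 21068 were almost equal, since Pias2 holds most of them.

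The GC content of the transcript moved with these differences. When the well expressed genes were sorted into 20 bins by GC content, the most AT-rich bin had a median log2 fold change of 0.23 and the most GC-rich bin one of -0.45. Pias4, at 60.8% G and C the most GC-rich of the 10 genes, had a log2 fold change of -0.06 with this trend removed, against -0.51 as deposited. Pias3, at 54.8%, went from -0.39 to -0.22. Ptpn2, at 39.7% the most AT-rich, stayed higher with 0.42. Ifngr1, at 48.4%, went from -0.39 to -0.46, and Ifngr2, at 49.8%, from -0.85 to -0.86. Under the 6 other scalings and pseudocounts tried, the direction of 8 of the 10 genes held, and those that turned were Jak1 and Pias1. Scaling to equal summed counts was not among the settings tried. The part of GC content in the differences of the 10 genes was not tested.

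**Figure D2:**
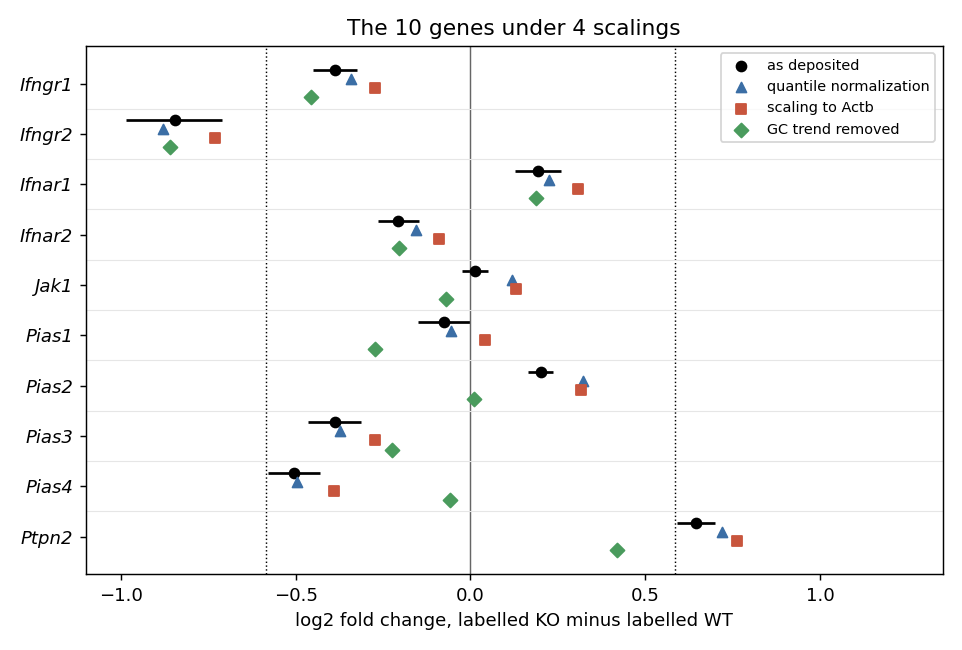
Log2 fold change (library labelled Chi3l1 KO minus library labelled WT) of the 10 genes as deposited, after quantile normalization, scaled to Actb, and with the GC trend removed. Bars on the deposited values are 95% exact binomial intervals for read sampling, and dotted lines mark 1.5-fold. Ifngr2 stays between -0.88 and -0.73 and beyond the line at every setting drawn, while Pias4 moves from -0.51 to -0.06 and Ptpn2 from 0.65 to 0.42 when the GC trend is removed.

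Taken as a list, the 10 genes were not set apart by count. None was past 2-fold, where 0.461% of the well expressed genes were higher and 0.743% were lower in the library labelled Chi3l1 KO (4.70% and 5.81% of all 24421 genes). At 1.5-fold, 1 of 10 was higher (Ptpn2) and 1 of 10 was lower (Ifngr2), where 3.95% and 6.29% of the well expressed genes and 9.60% and 11.4% of all genes were. With 10 genes, 1 gene in each direction does not distinguish the list from this background. Of the 10 genes, 4 were higher and 6 lower, and 51.2% of well expressed genes were lower. The median log2 fold change of the 10 was -0.14, against -0.01 over the well expressed genes, and it was -0.025 when the libraries were scaled to Actb, which adds 0.12 to every gene.

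**Figure D3:**
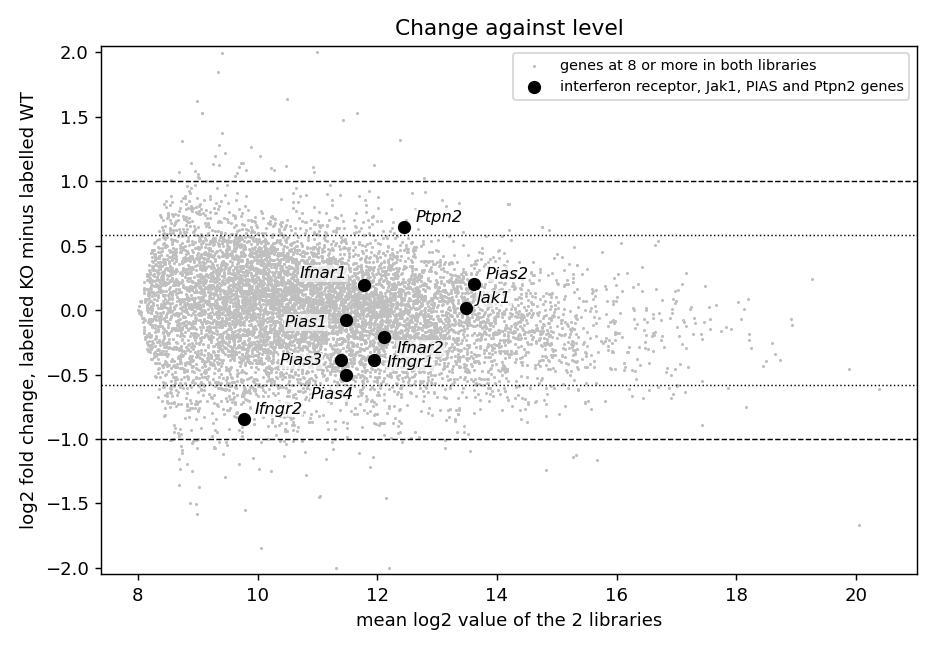
Log2 fold change (library labelled Chi3l1 KO minus library labelled WT) against the mean log2 value of both libraries, with the 8886 genes at 8 or more in both libraries in grey (changes beyond 2 on the log2 scale are drawn at the edge) and the 10 genes in black. Dashed lines mark 2-fold and dotted lines 1.5-fold. Ifngr2 at -0.85 and Ptpn2 at 0.65 lie beyond the dotted lines, and the other 8 genes lie between them.

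Levels of different genes were compared as normalized counts per kb of the longest annotated transcript. Ifngr2 was the least abundant of the 10 genes in both libraries, with 315.2 per kb in the library labelled WT and 175.2 per kb in the library labelled Chi3l1 KO. Ifngr1 had 2134 and 1630 per kb. The ratio of Ifngr1 to Ifngr2 per kb was thus 6.77 in the library labelled WT and 9.30 in the library labelled Chi3l1 KO, or 5.10 and 7.01 when the length of all annotated exons was used. The chains of the type I interferon receptor were closer to each other, with a ratio of Ifnar2 to Ifnar1 per kb of 1.85 and 1.40, or 2.57 and 1.95 with all annotated exons.

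Pias2 was the most abundant per kb, with 3852 and 4428 in the libraries labelled WT and Chi3l1 KO. Jak1 had 2329 and 2350 per kb, close to 2383 and 2491 for Jak2, which serves IFNGR2. Tyk2, which serves IFNAR1, had 916 and 813. Jak3, the kinase of the common gamma chain, stood far above them with 17468 and 12796 per kb. In the library labelled WT the order after Pias2 and Jak1 was Ifngr1, Ptpn2, Ifnar2, Pias4, Pias3, Ifnar1, Pias1 and Ifngr2. In the library labelled Chi3l1 KO Ptpn2 moved from rank 4 to rank 2, above Jak1, and Ifnar1 (966 per kb) stood next to Pias4 (936 per kb), the only neighbours whose 95% exact Poisson intervals overlapped. These intervals hold counting error only, and with all annotated exons as the length, ranks 2 and 3 in the library labelled WT exchanged places, as did ranks 4 and 5 and ranks 6 and 7 in the library labelled Chi3l1 KO.

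**Figure D4:**
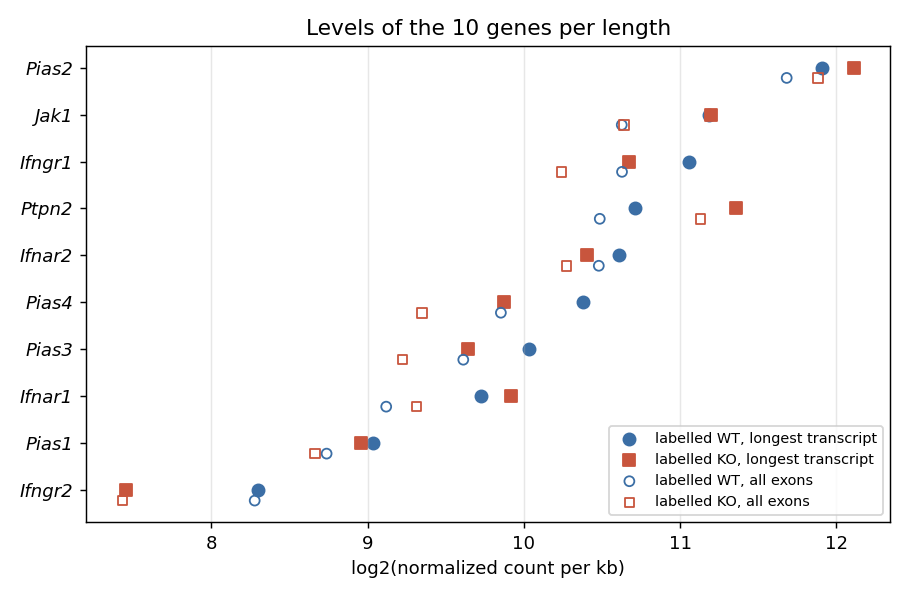
Log2 of the normalized count per kb for the 10 genes, ordered by the library labelled WT, with circles for that library and squares for the library labelled Chi3l1 KO (1 library each). Filled symbols use the longest transcript and open symbols the summed length of all exons. Ifngr2 is lowest and Pias2 highest in both libraries with either length.

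Ifnar2, Ifnar1 and Ifngr2 lie in 1 cluster on the plus strand of chromosome 16, with Il10rb, the shared chain of the IL-10 family receptors, between Ifnar2 and Ifnar1. The genes did not shift together. Along the chromosome the log2 fold changes were -0.21 for Ifnar2, 0.48 for Il10rb, 0.19 for Ifnar1 and -0.85 for Ifngr2. Beyond Ifngr2, the next genes in order had -0.02 (Tmem50b), 1.28 (Dnajc28, with log2 values of only 4.86 and 6.14), 0.09 (Gart) and -0.06 (Son), and farther on Cryzl1 had 0.80 and the low antisense gene Gm10785 had 1.87. These neighbours were named after their values were seen. Of the 17 listed genes in the cluster and within 200000 bases of it, Ifngr2 had the lowest log2 fold change.

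The other genes of the pathways were taken from 10 lists of 114 genes, Jak1 among them. Of these, 10 were at least 2-fold higher and 2 at least 2-fold lower in the library labelled Chi3l1 KO, beside 4.70% and 5.81% of all genes listed. Among the well expressed pathway genes 1 was higher and 0 lower by 2-fold, beside 0.461% and 0.743% of all well expressed genes. Ifng, the ligand of IFNGR1 and IFNGR2, was the well expressed gene among them, with log2 values of 11.72 in the library labelled WT and 13.04 in the library labelled Chi3l1 KO. The log2 fold change was 1.32 (interval 1.27 to 1.38). The other ligands had at most 17 reads in either library. The ligand was thus higher in the same library in which both of its receptor chains were lower.

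Downstream of the receptors, the transcription factors differed by less than 1.5-fold. Log2 fold changes were 0.24 for Stat2 and 0.11 for Irf9, whose products act in the factor for type I responses. Among the JAK kinases, Jak2 had 0.06, Tyk2 -0.17 and Jak3 -0.45. With the GC trend removed, Jak2 turned to -0.10 and Tyk2 to 0.08, and Jak3 had 0.004. Of the 10 well expressed chains of other receptors that use JAK1, 4 were higher and 6 lower. Their median was -0.05, with a range from -0.67 (Il2rb) to 0.38 (Il6st). Among all well expressed genes, 48.8% were higher and 51.2% lower.

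The other inhibitors were mixed. In the SOCS list, Socs1, which blocks JAK1 and JAK2, had a log2 fold change of -0.87 (-0.51 with the GC trend removed) and Socs3 had -0.05, which turned to 0.07 under scaling to Actb and 0.31 with the GC trend removed. In the list of phosphatases and further inhibitors, 6 of 9 well expressed genes were higher, beside 48.8% of all well expressed genes. Usp18, which binds IFNAR2 and dampens type I signals, had log2 values of 10.17 in the library labelled WT and 11.11 in the library labelled Chi3l1 KO, a log2 fold change of 0.95 (interval 0.84 to 1.048). Among other phosphatases of this pathway, Ptpn6 and Ptpn11 were higher, as Ptpn2 was, with smaller log2 fold changes of 0.08 and 0.25, and Ptpn1 had -0.10. Ptpn1 turned to 0.09 with the GC trend removed and to 0.01 under scaling to Actb.

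PIAS proteins act in the SUMO pathway, which joins the small protein SUMO to other proteins. All 17 genes of the SUMO list were well expressed, of which 11 were higher and 6 lower in the library labelled Chi3l1 KO. Of all well expressed genes, 48.8% were higher and 51.2% lower. The SUMO list had a median log2 fold change of 0.28 (0.18 with the GC trend removed). The list ranged from -0.54 for the ligase Zmiz2 to 0.77 for the SUMO protease Senp5. None was past 2-fold.

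Among interferon target genes, 23 of those induced by IFNγ were well expressed, of which 11 were higher and 12 lower, with a median of -0.05. This split moved with the scaling, since 7 were higher with the GC trend removed, and the median turned to 0.07 under scaling to Actb. Their extremes were Ciita, the master regulator of MHC class II, with -0.89, and the chemokine gene Cxcl10 with 0.62. Of 21 genes induced by type I interferon, 17 were higher and 4 lower, beside 31.7% and 34.4% of all genes listed. All genes listed include genes at 0 in both libraries. Only 7 of the 21 were well expressed, with 5 higher and a median of 0.22, where 48.8% of all well expressed genes were higher. By 2-fold, 5 of the 21 were higher and 0 lower, beside 4.70% and 5.81% of all genes listed. The 3 genes past 2-fold with at least 50 reads in a library were Mx2 (27 and 71 reads, log2 fold change 1.36), Oasl1 (41 and 101 reads, 1.28) and Oasl2 (68 and 147 reads, 1.10), all antiviral genes and all higher in the library labelled Chi3l1 KO. Whether the lists differ from each other was not tested.

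**Figure D5:**
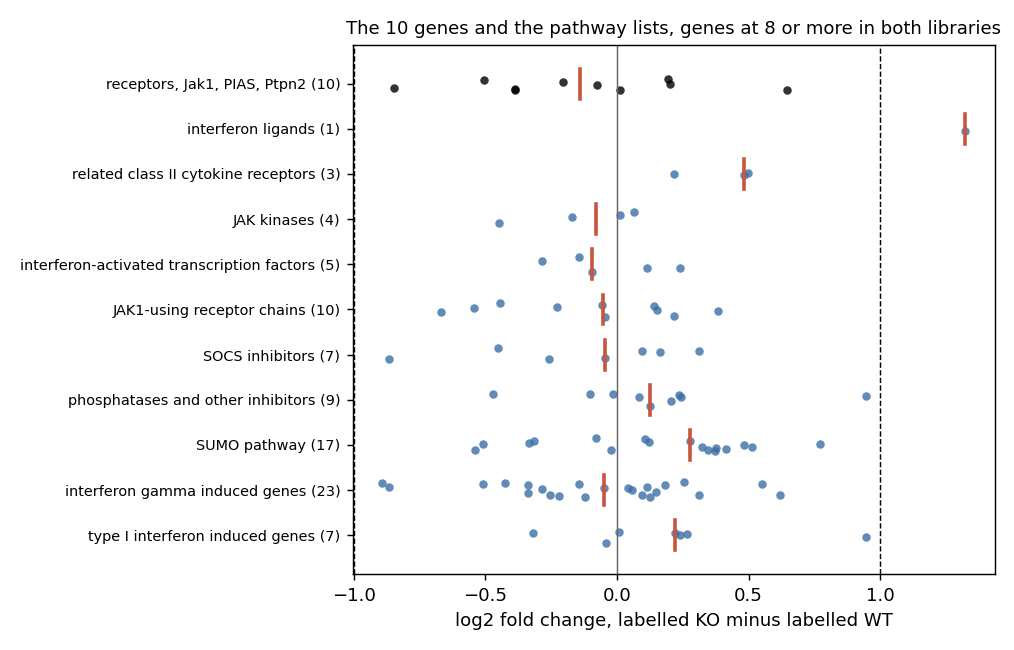
Log2 fold change (library labelled Chi3l1 KO minus library labelled WT) of the 10 genes (black, top row) and of the genes of 10 pathway lists, for genes at 8 or more in both libraries, with their number in brackets. Each point is 1 gene, red bars are medians and dashed lines mark 2-fold. Only Ifng, at 1.32, lies beyond 2-fold, and the SUMO list has a median of 0.28.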

How the data were processed

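Per the labels and the study's methods, polyadenylated RNA of 1 WT Th1 and 1 Chi3l1 KO Th1 sample was made into libraries with the SENSE mRNA-Seq kit and sequenced from both ends, reads were mapped with TopHat to mm10 (processing notes of the submitters), and unique and multiple alignments were counted and compared with edgeR. The TopHat version and the annotation are not given in the sources used here. The authors deposited 1 value per gene, read here as log2 of a globally normalized count plus 1, a unit inferred from the values. After the log was undone, 99.95% and 99.7% of low values (from 5 to 40) were within 0.1 of a whole multiple of 0.969 (WT) and 0.967 (Chi3l1 KO), taken as the worth of 1 read. At 3 reads the log2 value is 1.97 and 1.96.

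The 10 genes and the gene lists were chosen with earlier results of these data known. With 1 library per genotype no test between genotypes was made. Fold changes carry exact binomial (Clopper-Pearson) 95% intervals from rebuilt reads. Positions, transcript lengths, GC content and windows of 100 bases shared with other genes were read from GENCODE M21 (GRCm38), where 96.0% of the 15541 genes at 1 or more in either library were found, and promoters from RefSeq (GRCm38.p6). Raver2 and Nudt17 overlap Jak1 and Pias3 on the opposite strand, with log2 values of at most 7.01, and whether counting used strand is not given. Protein sequences were not used here. Alternatives were scaling to Actb, by median ratios or by quantiles, pseudocounts of 0.1 and none, removal of the median GC trend in 20 bins, a 1.5-fold threshold and 2 filters on low values. The length of all exons was added after seeing the data. Named genes were the 10, preset pathway genes, listed genes past 2-fold with at least 50 reads in a library, and Chil1. Genes at the ends of a list's range and neighbours of Ifngr2 were named after their values were seen, and a few preset genes are not reported here. Scripts were tested on simulated data. Scripts ran in Python 3.11.15 with scipy 1.17.1, numpy 2.4.6, matplotlib 3.10.9 and pandas 2.3.3.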

Additional observations from a re-analysis of the deposited data

How the results depend on the processing

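With 1 library per genotype no replicate could be left out, and no interval holds the variation between cultures or mice. No paired analysis was possible because each genotype has 1 library. Of 60 recomputed log2 fold changes of the 10 genes, 41 stayed within the read-sampling interval and 19 moved outside it, and the sign of Jak1 and of Pias1 turned. The median log2 fold change of the 10 genes was -0.14 as deposited and -0.025 with scaling to Actb. No gene of the 10 passed 2-fold under any scaling or pseudocount. With the 1.5-fold threshold 1 was higher and 1 was lower, and in the pathway lists 18 were higher and 6 lower, against 10 and 2 at 2-fold. Without a pseudocount, 1 pathway gene was lower by 2-fold, since genes at 0 in either library drop out, and among well expressed genes (8 or more in both libraries) 1 was higher and 0 lower. The 10 genes had 672 reads or more each, and the widest read-sampling interval was that of Ifngr2 (1.64 to 1.98-fold lower). The deposited normalized counts summed to 68448996 in the library labelled WT and to 60913079 in the library labelled Chi3l1 KO. Scaling that makes these sums equal was not tried, and the part of depth in the values was not tested.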
